A study of Psophocarpus tetragonolobus with 12 samples.

Results

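The interval described here is a stretch of winged bean chromosome piece Chr03.1 that holds several genes proposed as candidates for seed protein content. Its members were taken as every annotated gene on Chr03.1 whose start lies from 21 to 24 Mb in the authors' own assembly of the cultivar Ma3, the father of the mapping cross. The stretch lies inside the seed protein locus qSSP-1. This gave 123 genes of the 30392 in the deposited table, against 1729 other genes on Chr03.1. Within this span, whether a gene was on in pods played no part in the choice. The span itself was set to hold 4 candidates named in the paper, which cites pod expression for them. Their ranks and changes below are therefore a description and no independent evidence. Pods for RNA-seq came from FP15, the purple-podded line that was the mother of that cross, at 15, 30, 37 and 45 days after anthesis. There were 12 libraries of polyadenylated RNA, 3 for every stage, each from a different plant raised in a growth chamber. Every library is of this 1 genotype, so no other line stands beside it, and its reads were placed on the genome of another line. The labels name the tissue as pod, and the methods name pod and seed. The values are the authors' 1 value per gene and stage, as fragments scaled to transcript length and library size (FPKM) and rounded to whole numbers. No value per library was analysed here, so the spread between plants is unknown, no test was run, and no difference between stages can be set against replicate error. The error that can be given is rounding, 0.5 FPKM either way, so that a listed 0 covers every value under that limit.

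Seed protein depends on amino acids being made, carried to the seed and laid down in storage proteins, and the candidates of the interval touch these steps. Serine hydroxymethyltransferases (SHM) interconvert serine and glycine and feed the folate-bound pool of single carbon units. P34 is a papain-family protein known from soybean, where it is held in the protein storage vacuoles of the seed and is an allergen. NPF proteins form a large plant family of membrane carriers for nitrate, peptides and some hormones. The paper names PtSHM1, PtSHM2, a P34 homologue and PtNPF in the interval, and its lists of candidate and pathway genes give 25 further members with Arabidopsis or soybean matches. These 29 genes are called listed candidates below, and the functions given for them are those of their Arabidopsis matches. The other 94 members have no annotation in the sources used here and are given by identifier only. The listed candidates were set out by the study with their pod values beside them, so their counts are a description and no independent evidence.

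A member was taken as on in a stage where it reached 1 FPKM. By this measure 95, 92, 94 and 92 of the 123 members were on over the 4 stages in order, which are 77.2%, 74.8%, 76.4% and 74.8% of the interval. The shares over all genes of the table were 70.1%, 68.5%, 68.2% and 67.7%. On the rest of Chr03.1 they were 76.8%, 74.1%, 74.1% and 73.6%, so that the interval was close to the remainder of its own chromosome piece. In all, 100 members reached 1 FPKM in at least 1 stage and are called measured, while 23 were listed at 0 throughout. Of the measured members, 87 were on in every stage (87%, beside 86.4% of all measured genes). The listed candidates were 25 of the 100 measured members. The other 13 members were on in some stages only, and 7 of these 13 were listed candidates. Of them, 3 were on at Day 15 only, 2 at Day 15 and Day 30 only, 2 from Day 30 onwards, 1 from Day 37 onwards and 2 at Day 37 only, with 3 in other patterns. Over all measured genes these patterns, leaving out the last, held 3.85%, 1.41%, 1.94%, 0.864% and 0.565%. By mean over the stages, 14 measured members were at 50 FPKM or more and 69 were from 5 to under 50 FPKM. A further 9 were from 1 to under 5 FPKM and 8 under 1 FPKM. Over all 22459 measured genes these classes held 3025, 12634, 4784 and 2016 genes.

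A small number of genes carried much of the signal. The 4 members with the highest means together made up 49.0%, 54.6%, 50.2% and 43.2% of the summed FPKM of the interval over the 4 stages. They were PtSHM1, Psote03G0118400, Psote03G0120400 and PtSHM2, with means of 738.75, 448.75, 430.0 and 393.5 FPKM. The next below them, Psote03G0116200, had a mean of 122.0 FPKM. The median measured member was at 14, 13, 15 and 15.5 FPKM over the 4 stages. All measured genes of the table had a median of 11 FPKM in each stage.

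**Figure D1:**
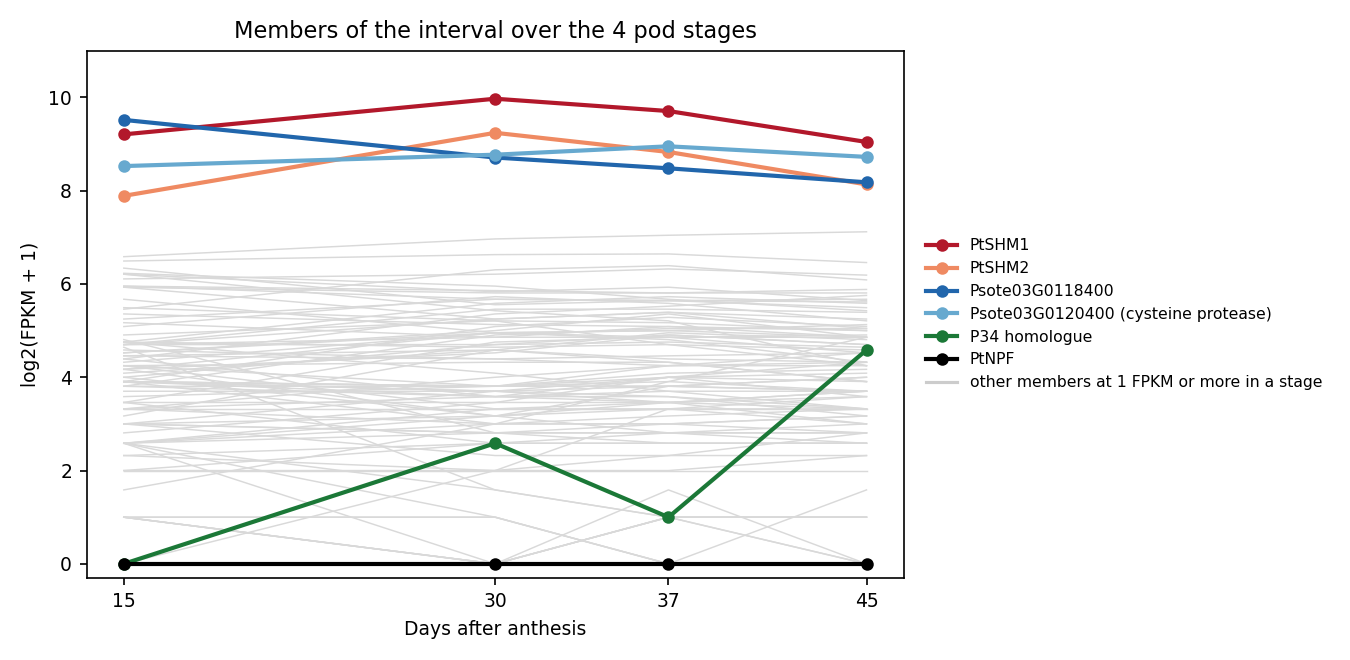
Level of the measured members and of PtNPF at 15, 30, 37 and 45 days after anthesis, on the log2(FPKM + 1) scale; each line joins the authors' 1 value per stage, with no error bars because no values per library were analysed. Coloured lines are the named candidates and the other members among the 4 highest means, and grey lines are the remaining measured members; 4 lines run far above the rest, the P34 homologue moves up, down and up again, and PtNPF stays at 0.

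PtSHM1 (Psote03G0113400; Chr03.1, 21244180 to 21246544) had the highest value of the interval at Day 30, Day 37 and Day 45. It stood at 590, 1003, 835 and 527 FPKM over the 4 stages. At Day 15 it was at rank 2 of the 123 members. Although the paper calls this gene a serine hydroxymethyltransferase, the Arabidopsis match given there is SAHH1, an S-adenosylhomocysteine hydrolase, which clears the by-product of methylation reactions. No sequence of the gene was examined here, so its function is left as both names. PtSHM2 (Psote03G0113600; 21261738 to 21264078) stood at 236, 604, 454 and 280 FPKM, at rank 4, 2, 3 and 4 of the interval. Both were highest at Day 30, a stage at which 8 of the 100 measured members and 8.95% of all measured genes had their single highest value. PtSHM2 was called higher at Day 30 than at Day 15, with a log2 change of 1.35, whereas PtSHM1 moved by less than 2-fold (0.76). At Day 45 against Day 15 neither was called. PtSHM1 stood at 2.50, 1.66, 1.84 and 1.88 times PtSHM2 over the stages, so that their ratio was smallest at Day 30. The paper's text prints the same soybean match for both genes, and whether some reads fit both was not examined.

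Both genes stood far above their neighbours. The single gene between them, Psote03G0113500, was listed at 0 in every stage. Among the 5 genes on each side of PtSHM1, 9 of 10 were measured, and the median of the 10 was 7, 9, 14.5 and 12.5 FPKM in stage order. PtSHM1 was at rank 1 and PtSHM2 at rank 2 of their windows of 11 genes in each stage. The closest measured gene upstream in coordinate order, Psote03G0113300, was at 5, 6, 7 and 8 FPKM, and the next after PtSHM2, Psote03G0113700, was at 13, 13, 15 and 14 FPKM. Further out, Psote03G0113200 was at 35, 28, 33 and 28 FPKM, Psote03G0113000 at 23, 20, 21 and 22 FPKM and Psote03G0114100 at 22, 30, 31 and 34 FPKM. These 5 differed by less than 2-fold between any adjacent stages, as did Psote03G0113100 at 3 FPKM throughout and Psote03G0113900 at 9, 11, 15 and 11 FPKM. A pair of neighbours did not stay level: at Day 30 against Day 15, the cell wall gene GAE6 (Psote03G0113800; 2, 7, 14 and 28 FPKM) was called higher and Psote03G0112900 (5, 1, 0 and 0 FPKM) was called lower. Apart from PtSHM1 and PtSHM2 themselves, no gene of either window had its single highest value at Day 30. Over all measured genes 8.95% did.

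Psote03G0118400 (Chr03.1, 22392652 to 22394852), which is on none of the candidate lists, was the highest member at Day 15. Its values were 732, 418, 356 and 289 FPKM over the 4 stages. At Day 15 this was 1.24 times the value of PtSHM1, and at Day 30 it was 0.417 times that value. Day 45 was lower than Day 15 by 2.53 times (log2 change -1.34), with a decline at each step. Its Day 15 value lay at percentile 99.7 of all measured genes and its Day 45 value at percentile 98.7. The gene was chosen by the rule for the highest means, and its function is not annotated in the sources used here.

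The P34 homologue (Psote03G0119900; 22734739 to 22736264) had the largest rise of the interval. Its values were 0, 5, 1 and 23 FPKM in stage order. Its Arabidopsis match is XBCP3, a papain-like protease. The rise was rank 1 of the 100 measured members, at 4.58 on the log2(FPKM+1) scale. When rounding is allowed for, the ratio of Day 45 to Day 15 was at least 45. The paper reports a much smaller fold rise for this gene between the same stages, and the reason for the difference was not examined. The homologue was 1 of 2 members that were called in all 3 adjacent steps, which are 2% of measured members, beside 1.48% of all measured genes. Its middle step, from 5 to 1 FPKM, lay at low values and was no longer called at a pseudocount of 5 FPKM. Its step at Day 45 against Day 37, 3.58, was the largest upward step of any member. The other such member, Psote03G0116000, moved solely between listed values of 0 and 1. By level, however, the homologue was modest: it was at rank 96, 79, 88 and 37 of the 123 members over the 4 stages. Among its 5 genes on each side, 8 of 10 were measured, with medians of 18, 19.5, 15.5 and 11.5 FPKM, so that its Day 45 value exceeded the median of its neighbours at that stage and its earlier values lay below theirs.

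More seed marker genes were on at the later stages. The 7 markers were storage proteins, seed maturation proteins and ABI3, and 3, 4, 6 and 7 of them were on over the stages. At Day 15 the vicilin-like gene, the 11S globulin paralogue, a seed maturation protein and ABI3 were listed at 0. The summed level of the 7 markers was 205, 132, 184 and 261 FPKM. The vicilin-like gene, a 7S storage protein, had values of 0, 4, 29 and 58 FPKM, whereas the 11S globulin gene went the other way, with 148, 68, 48 and 12 FPKM. ABI3, a seed regulator, did not exceed 1 FPKM. The marker of green tissue, LHCB6, was on throughout, with 283, 267, 264 and 128 FPKM. The part of seed tissue in the P34 result was not tested. In bulk pods, fewer cells of a type and less RNA per cell cannot be told apart.

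The other papain-like gene among the listed candidates lies 5 genes beyond the P34 homologue and was far higher and flatter. Psote03G0120400 (22850789 to 22853870), matched to an Arabidopsis granulin-repeat cysteine protease, stood at 368, 436, 494 and 422 FPKM. Such proteases are papain-like enzymes of the vacuole. Its highest value was 1.34 times its lowest, and it was at rank 3, 3, 2 and 2 of the interval. At Day 45 it held 422 FPKM beside the 23 FPKM of the P34 homologue. It is a listed candidate, but was not singled out by name in the paper.

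PtNPF (Psote03G0123600; 23734815 to 23743499) was listed at 0 in all 4 stages, as were 22 other members. The stretch around it was sparse. Of its 5 genes on each side, 5 of 10 were measured. Psote03G0123500, the neighbour before it, stood at 60, 37, 41 and 32 FPKM and Psote03G0123800 at 21, 23, 30 and 27 FPKM. Psote03G0123300 was at 1 FPKM at Day 37 only, and Psote03G0123900 was at 1 FPKM in all stages but Day 30. Of the 3 other listed transport genes, 1 was called higher and 1 lower at Day 45 against Day 15, beside 14.3% higher and 19.4% lower of all measured genes. The third, the ARM repeat gene emb2734 (Psote03G0118200; 61, 57, 55 and 55 FPKM), was not called, and its highest value was 1.11 times its lowest. NIP1;2 (Psote03G0122500), a membrane channel of the aquaporin family, had values of 0, 3, 9 and 11 FPKM, the second largest rise of the interval (log2 change 3.58). The xanthine/uracil permease Psote03G0120600, which carries nucleobases, stood at 27, 6, 5 and 5 FPKM, the fourth largest fall (log2 change -2.22).

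**Figure D2:**
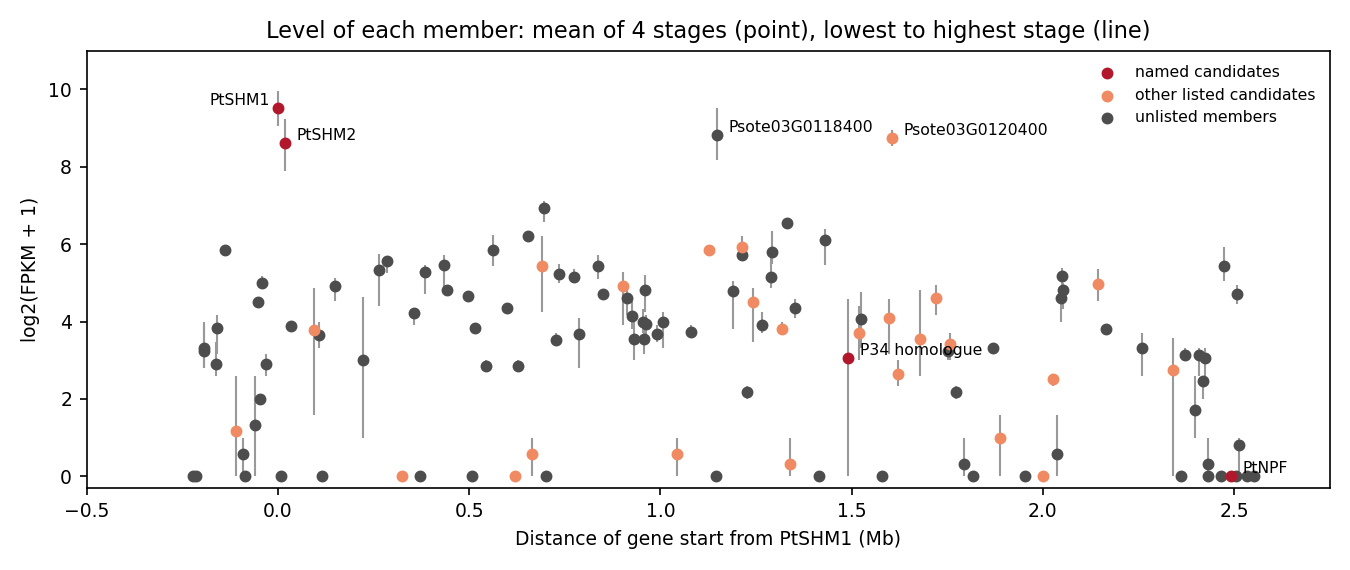
Level of all 123 members against the distance of their start from that of PtSHM1 in Mb; points give the mean of the 4 stages on the log2(FPKM + 1) scale and vertical lines run between the lowest and the highest stage. Red, orange and grey mark the named candidates, the other listed candidates and the unlisted members; the 4 highest means stand at 3 places in the interval, and PtNPF lies at 0 near its far end.

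Changes within the interval were mostly small. A member counted as higher or lower if its log2(FPKM+1) differed by 1 or more (2-fold), a scale that understates the change of low genes. At Day 45 against Day 15, 10 of 100 measured members were higher and 16 were lower, while 74 were neither. Over all 22459 measured genes 14.3% were higher and 19.4% were lower, so both shares were below those of the table. On the rest of Chr03.1, 12.4% were higher and 19.1% lower. Members were not steadier by another measure. Among genes at 5 FPKM or more in every stage, 41.0% of members had a highest value under 1.5 times their lowest, beside 52.9% in the table. Of these calls, 1 higher and 4 lower members moved solely between listed values of 0 and 1. The median change of the measured members was 0, as it was over all measured genes.

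More members were called in the first step than in the later ones, but this step spans 15 days and the later steps 7 and 8 days. At Day 30 against Day 15, 8 members were higher and 10 lower, beside 9.47% higher and 13.7% lower of all measured genes. At Day 37 against Day 30, 6 were higher and 4 lower, beside 3.47% and 3.69%. Of these 10 calls, 7 moved solely between listed values of 0 and 1. At Day 45 against Day 37, 2 were higher and 3 lower, beside 3.53% and 5.13%. With all stages set to the same sum, these later steps had 2 higher and 1 lower at Day 37 against Day 30, and 3 higher and 1 lower at Day 45 against Day 37. A move between listed values of 0 and 1 lies exactly at the threshold, so slight rescaling can end its call. Shares of all measured genes are not given for this setting, so these counts show no trait of the interval. The largest of the 3 steps was the first for 64 of the 100 measured members and for 57.3% of all measured genes. Of the 26 members called at Day 45 against Day 15, 14 were also called at Day 30 against Day 15. These 2 comparisons share the Day 15 values.

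**Figure D3:**
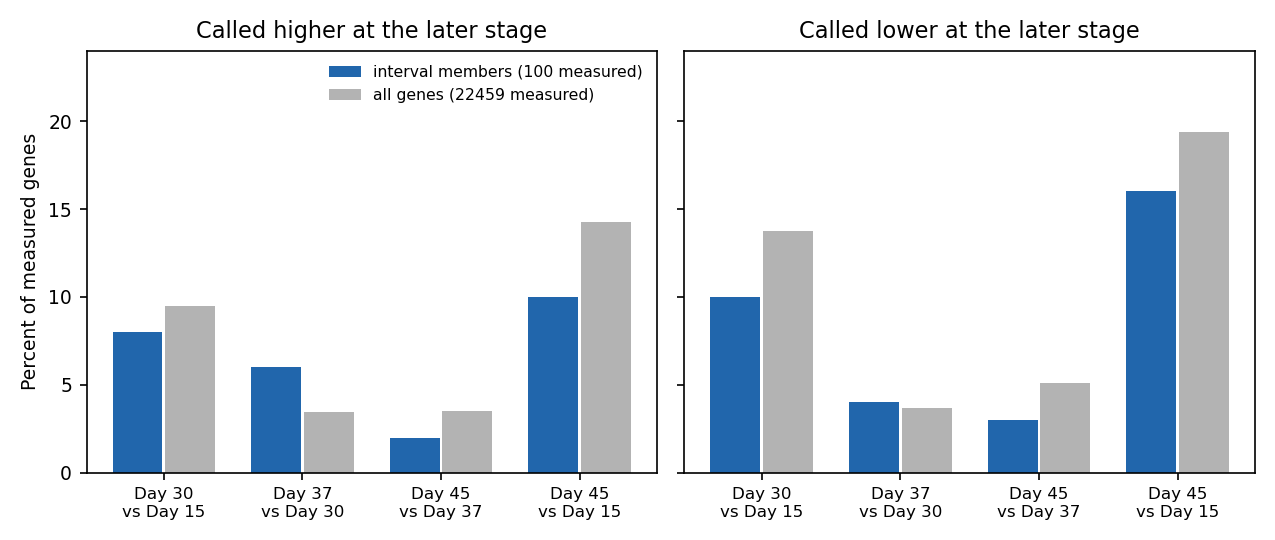
Percent of measured genes called higher (left) or lower (right) by 2-fold on the log2(FPKM+1) scale for each later stage against the earlier one, with the 100 measured members in blue and all 22459 measured genes in grey. Bars start at 0; in both groups the first step has taller bars than the later steps, and 10 members were higher and 16 lower at Day 45 against Day 15.

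Of the 3 listed cell wall genes, 1 was higher and 1 lower at Day 45 against Day 15, where all measured genes had 14.3% higher and 19.4% lower. GAE6 (Psote03G0113800; 21338209 to 21339909), an epimerase that makes UDP-galacturonate for pectin, stood at 2, 7, 14 and 28 FPKM. Its value grew at each step, with a ratio of Day 45 to Day 15 between 11 and 19 when rounding is allowed for. It lies 0.094 Mb from PtSHM1, at rank 3 of the rises. CESA8 (Psote03G0120900), a cellulose synthase subunit of secondary walls, stood at 7, 12, 11 and 9 FPKM and was not called. The X8 domain gene Psote03G0116000, of a family that binds callose, was at 1, 0, 1 and 0 FPKM, and its call ended at a pseudocount of 5 FPKM (log2 change -0.26).

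The acyl-activating enzymes, which join carboxylic acids to coenzyme A or a carrier protein, were called in both directions at Day 45 against Day 15, 2 of 3 higher and 1 lower, beside 14.3% and 19.4% of all measured genes. Both genes matched to AAE18 were called higher at Day 45. Psote03G0117000 (22146565 to 22155634) stood at 14, 33, 38 and 33 FPKM. Psote03G0118900 (22485263 to 22504851) stood at 10, 26, 28 and 22 FPKM, with a log2 change of 1.06 that fell short of the threshold after all stages were set to the same sum (0.98) and at a pseudocount of 5 FPKM (0.85). Both had their highest value at Day 37. Reads that fit both copies could be assigned to either. The AAE16 match Psote03G0112600 (21134457 to 21148522) had values of 5, 0, 0 and 0 FPKM (log2 change -2.58).

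The listed candidates include 3 genes matched to transcription factors. bZIP44 (Psote03G0118700; 22458211 to 22458769), a basic leucine zipper factor, stood at 73, 56, 60 and 49 FPKM, at rank 9, 11, 9 and 13 of the interval. WRKY65 (Psote03G0121700) stood at 4, 5, 5 and 5 FPKM. DOF1.5 (Psote03G0119500), a DOF zinc finger factor known in Arabidopsis light signalling, had values of 1, 0, 0 and 0 FPKM. Of the 3, only DOF1.5 was called at Day 45 against Day 15 (lower, as were 19.4% of all measured genes), and this call between listed values of 1 and 0 ended at a pseudocount of 5 FPKM (log2 change -0.26).

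Of the 3 listed kinase and signalling genes, 2 were lower at Day 45 than at Day 15, beside 19.4% of all measured genes. The leucine-rich repeat kinase Psote03G0120000 (22763525 to 22769405), a receptor-like kinase, stood at 20, 11, 10 and 7 FPKM (log2 change -1.39). MEE62 (Psote03G0120500), of the same kinase family, stood at 7, 4, 4 and 6 FPKM and was not called. The calmodulin-binding gene Psote03G0118000 was the other, with 1, 1, 0 and 0 FPKM, and its call ended at a pseudocount of 5 FPKM (log2 change -0.26). The lipid transfer protein gene Psote03G0116100 (21934607 to 21935745), whose superfamily also holds the 2S albumins, stood at 73, 42, 36 and 18 FPKM. It declined at each step, was the fifth largest fall (log2 change -1.96), and stood at rank 46 of the interval at Day 45, against rank 9 at Day 15.

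The remaining listed candidates changed little between Day 15 and Day 45. GSTU7 (Psote03G0122200), a glutathione S-transferase, stood at 22, 31, 40 and 28 FPKM, and the RING finger gene Psote03G0120700 at 17, 30, 27 and 19 FPKM. The hydrolase-like gene Psote03G0119300 stood at 12, 12, 13 and 15 FPKM. Psote03G0120300, of a family with no known function (DUF688), stood at 8, 23, 19 and 14 FPKM and was called higher at Day 30 against Day 15 and in no other comparison. Psote03G0121400 was at 1, 1, 0 and 2 FPKM. SUMO2 (Psote03G0115700), a protein tag, the DUF803 gene Psote03G0114500 and Psote03G0121600 were listed at 0 throughout.

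The listed candidates and the unlisted members can be set side by side by their counts. At Day 45 against Day 15, 5 of 25 measured listed candidates were higher (20%) and 7 lower (28%). Of 75 measured unlisted members, 5 were higher (6.67%) and 9 lower (12%), and of all measured genes 14.3% were higher and 19.4% lower. Among the candidates called lower, Psote03G0116000, Psote03G0118000 and Psote03G0119500 moved solely between values of 0 and 1. Among the unlisted members, Psote03G0121100 (lower) and Psote03G0112700 (higher) did so. At Day 30 against Day 15, 7 listed candidates were higher (28%) and 4 lower (16%), beside 1 unlisted member higher (1.33%) and 6 lower (8%), with 9.47% and 13.7% over all measured genes. No test of these differences was run. The median level of the measured listed candidates was 15 FPKM at Day 45 and 10 FPKM at Day 15, beside 16 FPKM at Day 45 and 15 FPKM at Day 15 for the unlisted members. In number, 25 of 29 listed candidates and 75 of 94 unlisted members were measured.

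**Figure D4:**
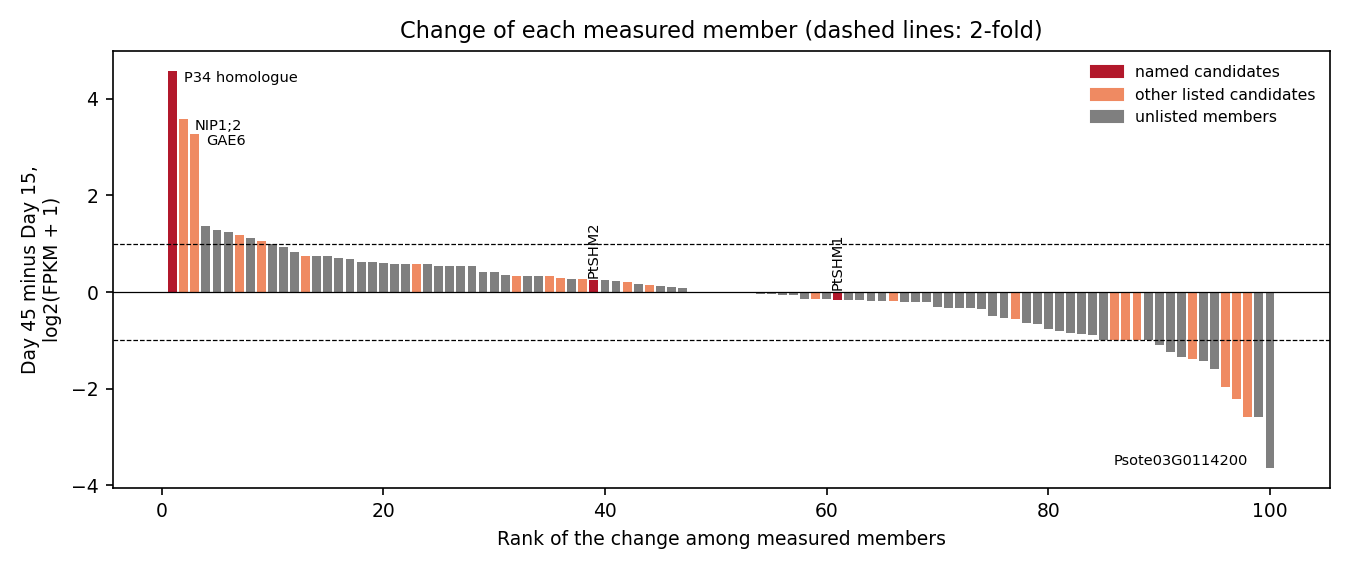
Change of each of the 100 measured members from Day 15 to Day 45 in log2(FPKM + 1), ordered by size; red, orange and grey bars are the named candidates, the other listed candidates and the unlisted members, and dashed lines mark 2-fold. The P34 homologue is first at 4.58, NIP1;2 and GAE6 follow at 3.58 and 3.27, PtSHM2 and PtSHM1 stand near 0 at ranks 39 and 61, and Psote03G0114200 is last at -3.64.

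Large changes were also found among the unlisted members. Psote03G0114200 (21466748 to 21474671) had the largest fall, with 24, 2, 1 and 1 FPKM (log2 change -3.64). Psote03G0112900, given above beside PtSHM1, tied for the next place (log2 change -2.58). On the other side, Psote03G0114300 (21509303 to 21512051) stood at 20, 40, 45 and 53 FPKM (log2 change 1.36) and Psote03G0116700 at 6, 10, 15 and 16 FPKM (log2 change 1.28). The call of Psote03G0116700 ended at a pseudocount of 5 FPKM (0.93). Psote03G0121800, at 0, 0, 2 and 0 FPKM, had the largest rise of any member at Day 37 against Day 30 and the largest fall at Day 45 against Day 37 (1.58 each way on the log2 scale), from a difference of 2 FPKM. The 10 highest means fell on 11 genes because of a tie, and 5 of these were listed candidates. The unlisted ones below Psote03G0118400 changed by less than 2-fold: Psote03G0116200 stood at 95, 124, 131 and 138 FPKM, Psote03G0119400 at 89, 98, 99 and 87 FPKM, Psote03G0115900 at 68, 73, 79 and 72 FPKM and Psote03G0119800 at 43, 78, 83 and 67 FPKM. Psote03G0112500, which tied with emb2734, stood at 60, 55, 55 and 58 FPKM.

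The other unlisted members called at Day 45 against Day 15 were named after their values were seen. Psote03G0118500 stood at 13, 29, 32 and 32 FPKM and Psote03G0122400 at 5, 9, 10 and 12 FPKM, both higher, as was Psote03G0112700 at 0, 0, 1 and 1 FPKM. The lower ones lay at modest levels. Psote03G0117300 stood at 18, 9, 9 and 7 FPKM and Psote03G0122800 at 5, 2, 1 and 1 FPKM. The neighbours Psote03G0112100 and Psote03G0112200 stood at 15, 8, 6 and 7 FPKM and at 14, 7, 7 and 6 FPKM, with a log2 change of exactly -1 in Psote03G0112100. Psote03G0120100 stood at 26, 16, 12 and 9 FPKM, and Psote03G0121100 was at 1, 0, 0 and 0 FPKM. Psote03G0112400, at 17, 8, 13 and 15 FPKM, was called lower at Day 30 against Day 15 and in no other comparison.

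The stage of the highest value gave another view of the interval. Of the 100 measured members, 39, 8, 19 and 16 had their single highest value at Day 15, 30, 37 and 45, and 18 had ties. Over all measured genes the shares were 37.3%, 8.95%, 9.84% and 25.1%, with 18.8% ties. The interval thus held more genes highest at Day 37 and fewer highest at Day 45 than the table as a whole. With each stage rescaled to the same sum, which breaks ties, 25 members and 33.2% of all measured genes were highest at Day 45, and 17 members and 7.27% at Day 37. Of the 78 members at 5 FPKM or more in every stage, 32 had a highest value under 1.5 times their lowest (41.0%, beside 52.9% of such genes in the table), and their median ratio of highest to lowest was 1.63, beside 1.44. Psote03G0121300 was listed at 9 FPKM in all 4 stages.

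Members were spread unevenly in activity along the interval. From 22 to 22.5 Mb, 23 of 24 members were measured, whereas from 23.5 to 24 Mb, where PtNPF lies, 11 of 18 were. The summed level of the first 0.5 Mb, which holds the PtSHM pair, was 1088, 1811, 1517 and 1048 FPKM over the stages, and that of the last 0.5 Mb was 114, 101, 122 and 115 FPKM. The members listed at 0 throughout were also short, with a median span of 1292 bp, beside 3384.5 bp for the measured ones. No member overlapped the one before it. The first and the last member, Psote03G0111900 and Psote03G0124100, were listed at 0 throughout. The nearest genes outside were Psote03G0111800 at 3, 2, 2 and 1 FPKM and Psote03G0124200 at 3, 5, 4 and 4 FPKM.

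Close neighbours often moved alike. In 11 pairs of measured members less than 1 kb lay between the genes, and in 8 of them the changes at Day 45 against Day 15 lay within 0.5 of each other on the log2 scale (72.7%). Over the table this held for 67.9% of 3694 such pairs, and for 32.1% of 14148 pairs with a gap of 1 kb or more. The run Psote03G0121900, Psote03G0122000 and Psote03G0122100 has gaps of 46 and 56 bp. Its genes stood at 15, 25, 29 and 25 FPKM, at 25, 37, 41 and 37 FPKM, and at 19, 30, 31 and 28 FPKM. The kinase gene Psote03G0120000 and Psote03G0120100, 230 bp apart, had changes of -1.39 and -1.43. Since the libraries carry no strand information, reads near such borders could belong to either gene, and whether some of these models are parts of 1 gene was not examined. PtSHM1 and PtSHM2, whose starts lie 0.0176 Mb apart, are not among these pairs.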

How the data were processed

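RNA-seq of FP15 pods at 4 stages, with 3 libraries each, was analysed. Per the paper's methods, the authors aligned paired-end reads with HISAT2 (version 2.0.5) and quantified genes as FPKM with featureCounts (version 1.5.0-p3). The submitters' processing notes also list fastp. The authors deposited FPKM rounded to whole numbers, 1 value per gene and stage for 30392 genes, treated here as a score because the columns hold no fractions. The sources used here do not state how the 3 libraries became 1 value, the table carries no depth per library, and read totals from elsewhere were not used here, and 0 columns of other samples were present. With 1 value per stage no test, SD or n could be given. A gene was measured at 1 FPKM or more in a stage, and changes were taken on log2(FPKM+1), later stage minus earlier, with a 2-fold threshold. The calling rule was checked on Day 15 values of 5 FPKM or more, raised or lowered 4-fold without added noise. Recovery was fixed in advance, so this check says nothing about replicate spread or about calls at low values. Members, lists and thresholds were chosen with earlier results of these data known. Named genes were the listed candidates, the 5 largest rises and falls, the 10 highest means, the 5 neighbours on each side of each named candidate, the genes at the ends and the largest steps (65 genes, some neighbours being left out of the text); other members were picked after their values were seen. The reference gene table supplied is of another assembly and matched 0 of the gene IDs, so no sequence is shown. Alternatives covered the pseudocount, the filter, rescaling, quantile normalization, a 4-fold threshold and a span from 20 to 25 Mb. The work ran in Python 3.11.15 with pandas 2.3.3, numpy 2.4.6 and, for plots, matplotlib 3.10.9.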

Additional observations from a re-analysis of the deposited data

How the results depend on the processing

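No paired analysis was possible because the table gives 1 value per stage and no replicate columns, and no replicate could be left out for the same reason. For the 49 measured members among the named genes, the change at Day 45 against Day 15 was recomputed with other pseudocounts, same-sum rescaling and quantile normalization. No called change turned its direction, but a pseudocount cannot turn one by construction. Same-sum rescaling shifted the median gene by only -0.083 on the log2 scale in this comparison, so it could hardly turn one either. Other steps were recomputed only as counts. For Day 45 against Day 15 the members called were 10 higher and 16 lower, with 6 and 8 at a pseudocount of 5 FPKM, 3 and 4 at a 4-fold threshold and 19 and 31 when the span ran from 20 to 25 Mb, which holds more genes. For Day 30 against Day 15 they were 8 higher and 10 lower, with 5 and 3 at a pseudocount of 5 FPKM, 2 and 3 at 4-fold, 6 lower among genes at 5 FPKM or more in a stage and 21 lower in the wider span. For Day 37 against Day 30 they were 6 higher and 4 lower, with 0 and 0 at a pseudocount of 5 FPKM and at 4-fold, 1 and 2 among genes at 5 FPKM or more, and 2 and 1 with each stage at the same sum. For Day 45 against Day 37 they were 2 higher and 3 lower, with 1 and 0 at a pseudocount of 5 FPKM, at 4-fold and among genes at 5 FPKM or more, 4 and 7 in the wider span, and 3 and 1 with each stage at the same sum. A step between a listed 0 and a listed 1 cannot be called at a pseudocount of 5 FPKM by construction. Shares of all measured genes are not given for these repeats, so their counts describe the settings only. In the wider span 169, 164, 167 and 166 members were on over the 4 stages, PtSHM2 was at rank 5 by mean in place of 4 and the P34 homologue at rank 133 in place of 75. Members highest at Day 45 numbered 25 in place of 16 with each stage at the same sum. That rescaling shifted the median gene by -0.12 on the log2 scale at Day 30 against Day 15. Of 87 counts and ranks recomputed, 51 stayed within 1.5 times or at the same rank. The repeats without the filter could not differ in number, because members that were not measured are listed at 0 throughout. The changes of the 49 named members stayed on the same side of the 2-fold threshold in 189 of 196 repeats. The table carries no depth per library, so counting error in low values was not assessed.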
